A study of Mus musculus with 32 samples.

Results

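The comparison described here is that of mouse gastrocnemius (GAS) muscle 14 d after transection of the sciatic nerve with GAS muscle at 0 d, 4 samples against 4. It covers all 18107 genes of the 33397 in the deposited table that reached an FPKM of 0.1 in at least 4 of these 8 samples. FPKM counts the sequenced fragments of a gene relative to the length of its exons and to all fragments counted in that sample. The series holds 32 samples of male C57BL/6J mice, 4 at each of 8 times, and the GAS was denervated by removing a piece of the left sciatic nerve. The sample labels list the transection as the treatment of the 0 d samples too, and nothing ties a table column to an animal, so the p-values measure the spread between these samples only. The table names the samples C1 to C4 at 0 d and D14a to D14d at 14 d. The samples are whole muscle: fewer cells of a type and less RNA per cell cannot be told apart.

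A motor nerve holds its muscle fibres in a differentiated state. Electrical activity represses the fetal acetylcholine receptor genes outside the synapse, sets the fibre type and keeps energy metabolism high. When the nerve is cut, fibres are known to re-express synaptic and embryonic genes along their length and to break down contractile protein through the ubiquitin-proteasome and autophagy-lysosome pathways, while the stump of the nerve inside the muscle loses its myelin. The study asks how far the NLRP3 inflammasome, a caspase 1-activating complex of innate immunity, takes part in the atrophy.

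The recovered depth was 14925279 to 15874341 fragments per sample at 0 d and 16615479 to 17561590 at 14 d. Muscle markers were high and retina markers, which the extraction protocol in the labels would imply, were close to absent, with 6 of the 8 below the filter, 1 not in the table and 1 tested but not called. Replicates differed by more than sampling noise in every pair, so none was counted as a repeat of another. Mitochondrial transcripts took 14.5% to 18.2% of the fragments at 0 d and 7.27% to 9.28% at 14 d, and the 10 most abundant genes took 23.7% to 26.3% and 13.5% to 15.2%. FPKM divides by the total of a sample, and the genes tested had a median log2 change of 0.21. Rescaling without the mitochondrial genes left 2664 genes higher and 994 lower, against 3248 and 844 as deposited. Because the scaling moves the counts, counts are given on the FPKM values as deposited and, where stated, again after median-ratio scaling, which brought the median to 0.01.

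At 14 d, 3248 genes were higher than at 0 d and 844 were lower, at an adjusted p under 0.05 (limma on log2(FPKM + 1), Benjamini-Hochberg) and a change of at least 1.5-fold. These are 17.9% and 4.66% of the genes tested, and they are the background against which the counts of the gene lists below are to be read. After median-ratio scaling, 1409 genes (7.78%) were higher and 1615 (8.92%) were lower, so that the share of higher genes among those called went from 79.4% to 46.6%. The 844 lower genes were all lower under median-ratio scaling too, as were the 1409 higher genes in the deposited values, whereas 1839 genes were higher only as deposited and 771 were lower only after scaling. Groups did not overlap in 43.3% of all genes in the higher direction and in 9.66% in the lower one. Of the genes tested, 329 had no 0 d sample at the FPKM filter and 80 had no 14 d sample there; 89 and 23 of them were called. These could enter the test only through the group in which they are high. Among the genes named below they are Chrng, Krt8, Fkbp1a-ps2, Olig1, Gm37800, A430010J10Rik, Orm2, Tac4 and Gm11872, and on the lower side Odf3l2.

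**Figure D1:**
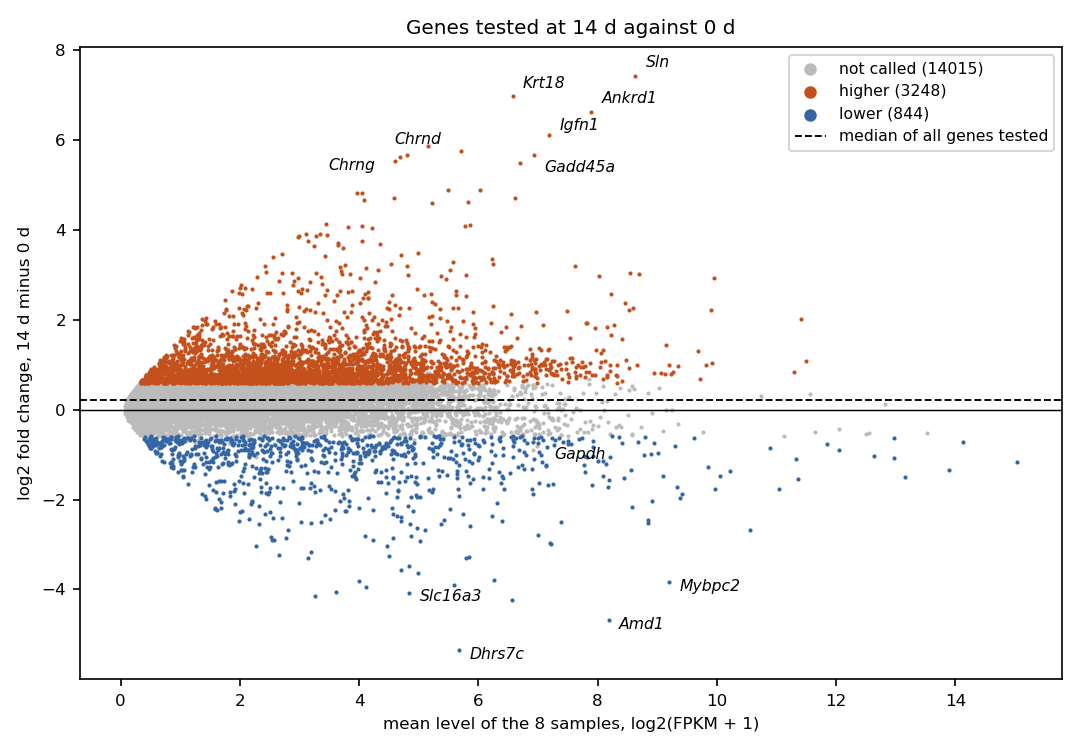
Each point is 1 of the 18107 genes tested, with the mean level of the 8 samples on the x axis, as log2(FPKM + 1), and the log2 fold change of 14 d against 0 d on the y axis; 3248 genes called higher are orange, 844 called lower are blue, and the dashed line is the median of 0.21. Sln, Krt18, Ankrd1 and Igfn1 lie at the top and Dhrs7c and Amd1 at the bottom.

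The genes with the largest rises on the log2(FPKM + 1) scale had low levels at 0 d. Sln encodes sarcolipin, a small inhibitor of the sarcoplasmic reticulum calcium pump. Its FPKM was 5.81, 3.81, 2.04 and 2.15 in the 4 samples at 0 d and 1253, 936, 538 and 429 at 14 d, a log2 change of 7.42 ± 0.36 (SE, adjusted p = 2.25e-07). No other gene rose further on that scale, although the samples of 14 d were spread widely. Krt18 and Krt8, the partner keratins of simple epithelia, rose together by 6.97 and 5.65 on the log2 scale. Krt18 stood at 0.175 to 0.821 FPKM at 0 d and at 134 to 260 FPKM at 14 d. For Krt8 the 0 d libraries held 0 to 2 fragments each, against 1184 to 2681 at 14 d, so its fold change rests on very few fragments on one side. In both keratins the same pair of 14 d samples was the higher one, and it was also the higher pair for Sln.

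Ankrd1, a stretch-responsive ankyrin repeat protein of the sarcomere, had FPKM values of 4.59, 2.79, 3.02 and 4.95 at 0 d and 540, 395, 459 and 489 at 14 d. The log2 change was 6.63 ± 0.16 (adjusted p = 4.22e-09), and the groups were far apart. Igfn1, a large immunoglobulin and fibronectin repeat protein of the Z disc, rose by 6.12, from 1.80 to 7.29 FPKM to 263 to 309 FPKM. Gadd45a, a nuclear stress protein known to promote fibre atrophy after denervation, was at 2.28, 3.30, 6.28 and 3.93 FPKM at 0 d and at 225, 216, 272 and 241 FPKM at 14 d, a log2 change of 5.65 ± 0.20 (adjusted p = 3.69e-08). Part of its exon length, 337 of 1764 bases, is shared with a gene on the other strand. The remaining genes among the 10 largest rises were the receptor genes Chrnd and Chrng, described next, the long non-coding RNA Gm48395 (5.85) and the processed pseudogene Fkbp1a-ps2. No 0 d library held a fragment of Fkbp1a-ps2 and the 14 d libraries held 1063 in all, which makes it at least 318-fold higher when 3 fragments over the group are taken as the floor; its reads may be shared with the gene it was copied from.

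**Figure D2:**
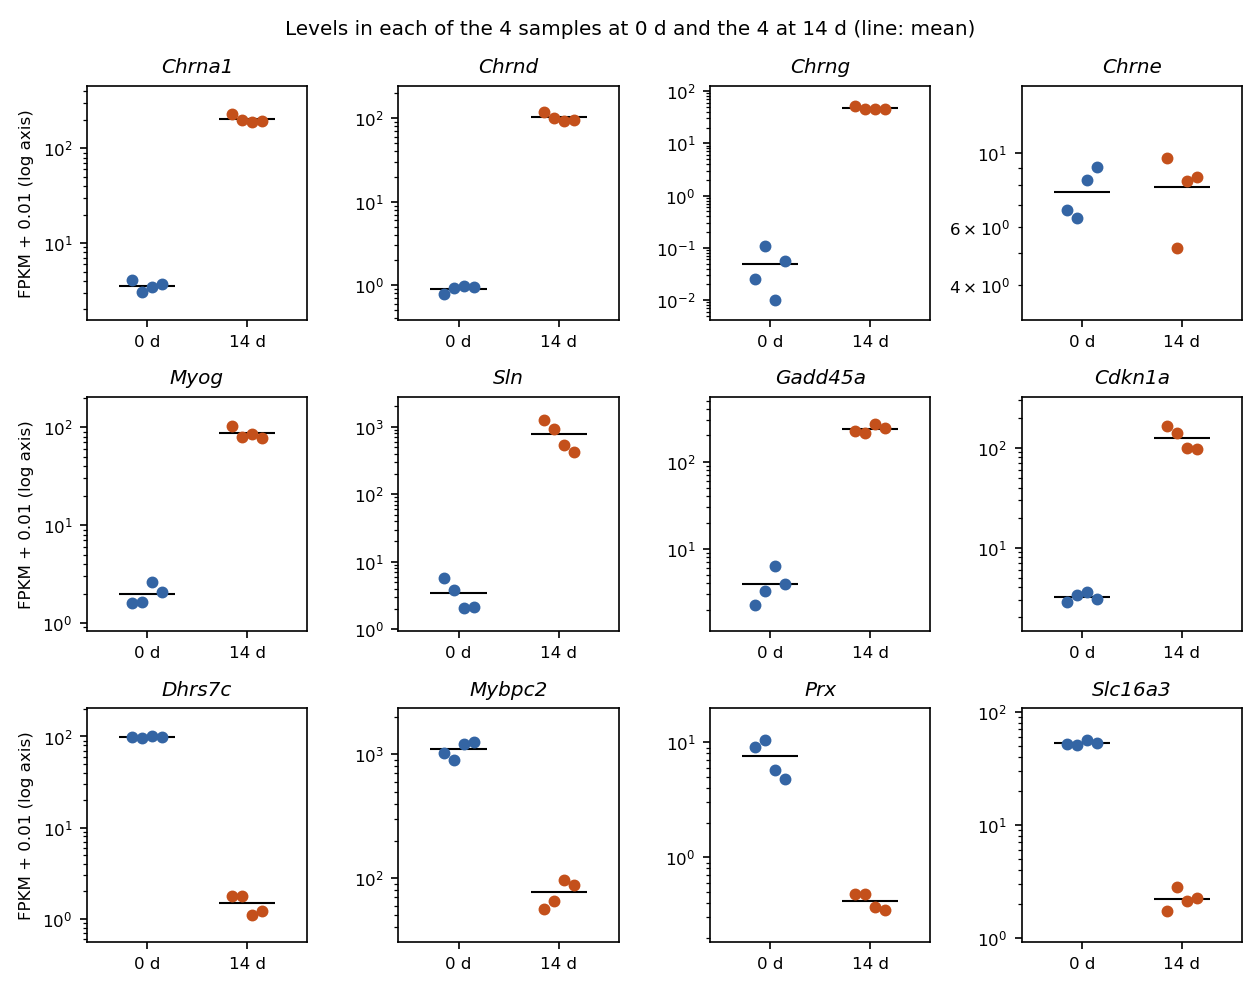
FPKM of 12 genes in each sample, on a log axis after adding 0.01 so that a value of 0 can be drawn; blue points are the 4 samples at 0 d, orange points the 4 at 14 d and lines are means. Chrna1, Chrnd, Chrng, Myog, Sln, Gadd45a and Cdkn1a are higher in all 4 samples at 14 d, Dhrs7c, Mybpc2, Prx and Slc16a3 are lower in all 4, and the groups overlap for Chrne.

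The muscle acetylcholine receptor is a pentamer of alpha, beta and delta subunits with either a gamma subunit, in fetal and denervated muscle, or an epsilon subunit, at the adult synapse. Chrna1, the alpha subunit that carries the ligand site, had FPKM values of 4.11, 3.02, 3.41 and 3.68 at 0 d and 230, 197, 192 and 194 at 14 d. It rose by 5.49 ± 0.09 on the log2 scale (adjusted p = 5.77e-10). Chrnd, the delta subunit, went from 0.770, 0.917, 0.956 and 0.939 FPKM to 118, 101, 93.8 and 95.7 FPKM, a log2 change of 5.76 ± 0.08. Chrng, the fetal gamma subunit, was counted with 0 to 6 fragments in each 0 d library and with 3075 to 3725 at 14 d. Its FPKM was 0.0156, 0.0966, 0 and 0.0454 at 0 d and 51.0, 45.1, 46.3 and 44.5 at 14 d (log2 change 5.52). All 4 of its 0 d values were below the filter, so it is one of the genes that entered the test only through 14 d, and its call is no support. Chrnb1, the beta subunit, rose by 2.98. Chrne, the adult epsilon subunit, did not separate the groups, with 6.72, 6.38, 8.30 and 9.06 FPKM at 0 d and 9.67, 5.14, 8.24 and 8.44 FPKM at 14 d (log2 change 0.03 ± 0.17, adjusted p = 0.908, or -0.32 after median-ratio scaling). The ratio of Chrng to Chrne is not touched by the scaling of a sample, and it was at most 0.0151 at 0 d and at least 5.27 at 14 d. This ratio and the others below were chosen after the values were seen and are given without a test.

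Chrnd lies at chr1:87190607-87200070 and Chrng next to it at chr1:87204657-87212694, both on the plus strand of GRCm38. Chrna1 is at chr2:73563215-73580338 and Chrne at chr11:70614883-70619216, both on the minus strand. The sequences before the RefSeq starts of 2 receptor genes that rose and of the one that did not are shown because promoters of this family are known for E-boxes, the sites of MyoD family factors. They are the 250 bases before the RefSeq start on the strand of the gene (GRCm38.p6), 5′ to 3′, with CAGCTG in capitals, as is CAGGTG on either strand. The windows are chr2:73580339-73580588 on the minus strand for Chrna1, chr1:87205561-87205810 on the plus strand for Chrng and chr11:70619195-70619444 on the minus strand for Chrne. The RefSeq start of Chrng lies inside the GENCODE gene given above, so its window is within that gene model, and the window of Chrne overlaps the first bases of its model. No window of Chrnd was at hand.
Chrna1: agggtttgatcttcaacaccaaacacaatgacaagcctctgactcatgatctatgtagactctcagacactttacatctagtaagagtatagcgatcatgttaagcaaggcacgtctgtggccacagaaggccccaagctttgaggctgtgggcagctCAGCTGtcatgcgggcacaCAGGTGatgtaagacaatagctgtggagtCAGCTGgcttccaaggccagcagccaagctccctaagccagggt
Chrng: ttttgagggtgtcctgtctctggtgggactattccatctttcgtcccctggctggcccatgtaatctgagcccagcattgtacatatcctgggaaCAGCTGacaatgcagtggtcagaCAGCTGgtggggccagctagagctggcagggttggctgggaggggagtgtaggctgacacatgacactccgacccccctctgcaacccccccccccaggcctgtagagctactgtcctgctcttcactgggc
Chrne: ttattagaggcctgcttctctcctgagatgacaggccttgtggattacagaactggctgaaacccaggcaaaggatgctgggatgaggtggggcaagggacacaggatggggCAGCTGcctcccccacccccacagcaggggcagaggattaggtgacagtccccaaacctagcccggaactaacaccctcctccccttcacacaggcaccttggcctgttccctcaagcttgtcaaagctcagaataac
Chrna1 and Chrng held 2 copies of CAGCTG each, and Chrne held 1. Of all 32851 RefSeq windows of this length, 13.0% held CAGCTG at least once and 1.26% at least 2 times. CAGGTG on either strand was found once in the Chrna1 window and in 17.2% of all windows. The window of Myog, at chr1:134289754-134290003 on the plus strand and not shown, held neither, although Myog rose. Other forms of the E-box were not counted in any window. A match is a run of letters and not a site.

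Of the 15 genes listed for the receptor and the synapse, 7 rose and 2 fell under either scaling, with a median log2 change of 0.52. Besides the 4 receptor subunits, the risers were Musk (2.57), the receptor kinase that gathers the receptors under the nerve ending, Lrp4 (1.01), its agrin-binding partner, and Ncam1 (2.30), an adhesion molecule of uninnervated fibres. Ache, the enzyme that splits acetylcholine, fell by 1.49, and Colq, the collagen that anchors it, fell by 0.72.

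Myog, the myogenic factor that is known to drive both receptor genes and ubiquitin ligases after denervation, had FPKM values of 1.61, 1.61, 2.59 and 2.06 at 0 d and 104, 79.8, 85.0 and 77.6 at 14 d (log2 change 4.89 ± 0.12, adjusted p = 5.56e-09). It lies at chr1:134289989-134292548 on the plus strand. Runx1, a Runt factor long known to be induced in denervated muscle, rose by 3.89, Myod1 by 3.29, Myf6 by 3.01 and Hdac4, the deacetylase that relays denervation to Myog, by 2.21. Dach2, a corepressor that holds Myog down in innervated fibres, fell by 0.80, from 0.915 to 0.102 FPKM. In all, 7 of the 13 listed transcription genes rose and 1 fell, again under either scaling, and the median log2 change was 1.13.

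Genes of satellite cells and fusion rose in part. Mymk and Mymx, the membrane proteins that fuse myoblasts, rose by 2.71 and 3.04, Tnfrsf12a, the receptor of TWEAK, by 2.06 and Chrdl2 by 1.13. Mymk was at 0, 0, 0.217 and 0.125 FPKM at 0 d and at 9.53, 7.24, 4.24 and 4.58 FPKM at 14 d, the higher pair being the same samples as for Sln. Pax7, the marker of quiescent satellite cells, was not called at 0.09, or -0.07 after median-ratio scaling. Of the 16 genes listed, 7 rose and 9 were not called, and after median-ratio scaling 6 rose and 1 fell.

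The structural genes of the fibre changed in both directions. Among the 16 adult fast fibre genes, 7 fell and 1 rose, and after median-ratio scaling 12 fell and 1 rose. Mybpc2, the fast myosin-binding protein C at chr7:44501699-44524656, had FPKM values of 1030, 890, 1208 and 1263 at 0 d and 56.6, 65.9, 97.1 and 87.7 at 14 d, a log2 change of -3.84 ± 0.18 (adjusted p = 1.61e-07). Mylk2 and Mylk4, kinases of the myosin light chain, fell by 2.98 and 2.50. Myh4, the myosin heavy chain of the fastest fibres, went from 4879, 4412, 6504 and 6331 FPKM to 3083, 2853, 3353 and 2470 FPKM (log2 change -0.90 ± 0.17, adjusted p = 0.00115). Actn3, the alpha-actinin of fast fibres, went the other way, with 1850, 1678, 2117 and 1815 FPKM at 0 d and 3708, 3632, 4543 and 3843 FPKM at 14 d (log2 change 1.07 ± 0.12, adjusted p = 4.45e-05). The ratio of Actn3 to Myh4 within a sample was 0.287 to 0.380 at 0 d and 1.20 to 1.56 at 14 d, and such a ratio does not depend on the scaling of a sample.

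Of the 16 slow and developmental sarcomere genes, 5 rose and 2 fell as deposited and 5 rose and 3 fell after median-ratio scaling. Myh3, the embryonic heavy chain, went from 0.996, 1.22, 0.573 and 0.426 FPKM to 47.6, 42.2, 41.9 and 48.5 FPKM, a log2 change of 4.69 ± 0.13. Myl4, the atrial and embryonic light chain, rose by 3.02, Tnnt2, cardiac troponin T, by 2.23, Myl6b by 2.00 and the perinatal heavy chain Myh8 by 1.97. Actc1, cardiac actin, fell by 1.53. Myl3, a slow light chain, was called at -1.23 with overlapping groups, and it was not called when C1, C2, D14c or D14d was left out (adjusted p of 0.0572 to 0.0608) or without the filter (0.0552).

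The make-up of the myosin heavy chains can be read within a sample, as each chain's part of the summed FPKM of 6 heavy chain genes. Myh4 gave 84.5% ± 5.83 (SD, n = 4) of that sum at 0 d and 71.8% ± 4.27 at 14 d, and the groups overlapped slightly (76.8% to 89.5% against 67.9% to 77.7%). The part of Myh2, the chain of oxidative fast fibres, was 6.98% ± 2.45 at 0 d and 14.9% ± 2.19 at 14 d with no overlap. Its own level was not called (log2 change 0.48, or 0.08 after median-ratio scaling). Myh3 rose from 0.0130% ± 0.0073 to 1.11% ± 0.158, so the embryonic chain stayed a small part of all heavy chain mRNA. These shares were chosen after the values were seen and are given without a test. Myh1 and the slow chain Myh7 overlapped between the groups, at 7.97% and 11.5% for Myh1 and 0.488% and 0.626% for Myh7.

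Intermediate filament and ankyrin repeat genes, which tie sarcomeres to each other and to the membrane, formed a list in which 12 of 15 rose and 1 fell, or 11 and 2 after median-ratio scaling, with a median log2 change of 1.24. After Krt18, Ankrd1 and Krt8 came Csrp3, a muscle LIM protein of the Z disc, which rose by 3.19. Synm, an intermediate filament partner of desmin, fell by 1.55. Desmin itself (Des) rose by 1.04, from 632 ± 55.8 to 1296 ± 46.7 FPKM (SD, n = 4), and stayed called after median-ratio scaling at 0.64.

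Genes of excitation and calcium release were divided, with 6 of 22 higher and 9 lower, or 4 and 12 after median-ratio scaling. Dhrs7c, a short-chain dehydrogenase of the sarcoplasmic reticulum at chr11:67798187-67816002, fell further than any other named gene on the log2(FPKM + 1) scale. It had 99.6, 95.6, 102 and 98.4 FPKM at 0 d and 1.79, 1.75, 1.10 and 1.22 FPKM at 14 d (log2 change -5.35 ± 0.10, adjusted p = 1.19e-09). Kcna7, a potassium channel, fell by 2.63, Clcn1, the chloride channel that steadies the resting membrane, by 1.51, and Jph2, which joins the membranes of the triad, by 1.41. Besides Sln the risers were Kcnn3, the apamin-sensitive potassium channel SK3 (4.07), Cacng1 (1.57) and Cacna1s (0.90), subunits of the calcium channel that senses voltage, the last not called after median-ratio scaling (0.51). SK3 is a textbook mark of denervated fibres. Of the exon length of Cacna1s, 1309 of 6550 bases lie opposite another gene. Scn4a, the adult sodium channel, and Ryr1, the calcium release channel, were not called, at -0.23 and 0.06, but after median-ratio scaling Scn4a was lower (-0.62) and Ryr1 was at -0.33.

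**Figure D3:**
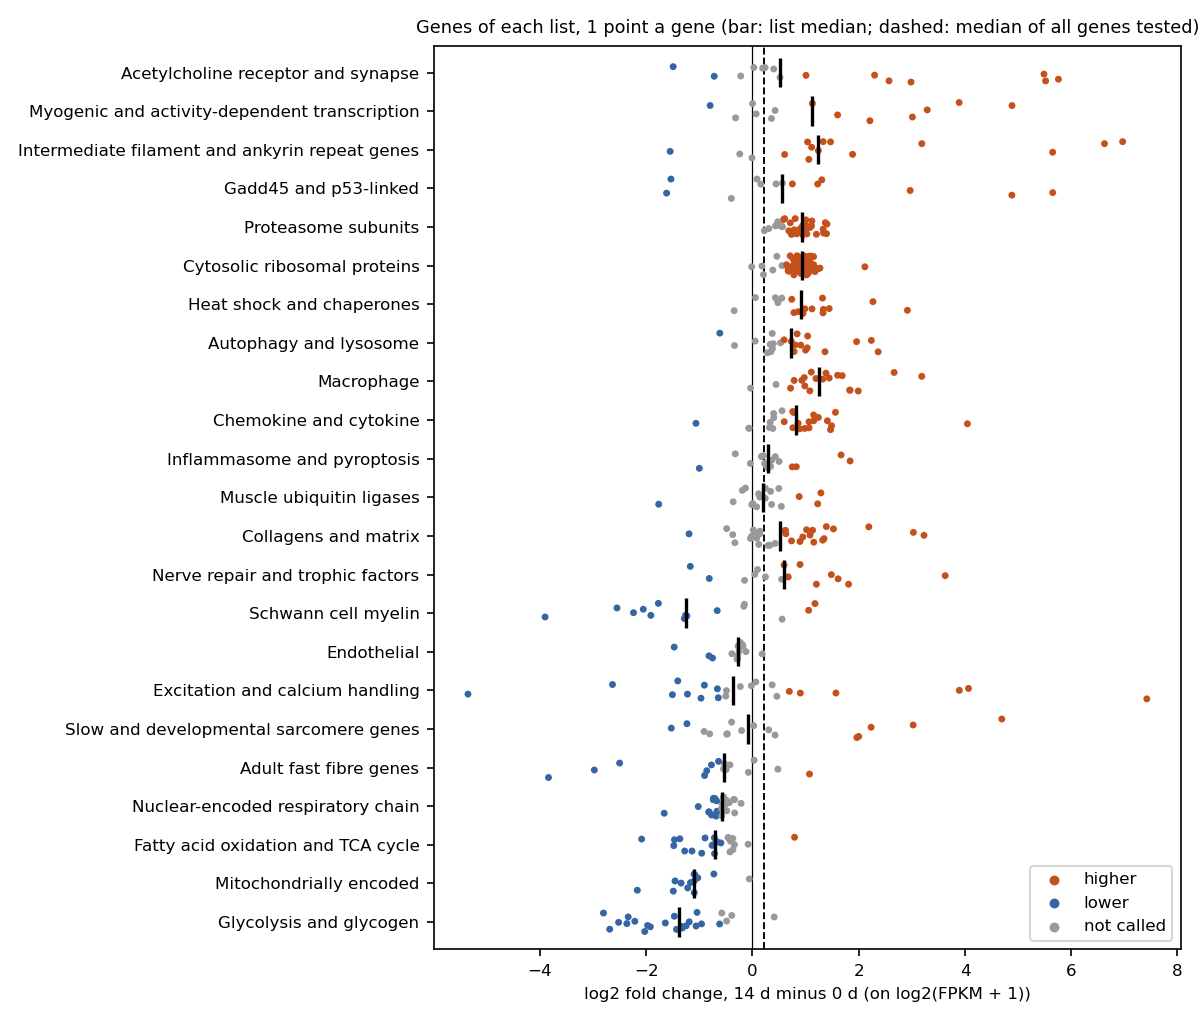
Log2 fold change of 14 d against 0 d on the x axis for each tested gene of 23 gene lists, 1 row a list; orange points are genes called higher, blue points genes called lower and grey points genes not called. Bars mark list medians, which run from 1.26 for macrophage genes to -1.38 for glycolysis and glycogen, and the dashed line is the median of all genes tested, 0.21.

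Most genes of energy metabolism were lower. Of the 24 genes of glycolysis and glycogen, 20 fell and 4 were not called, and 23 fell after median-ratio scaling. Their median log2 change was -1.38. Eno3, the muscle enolase, had 2681, 2593, 2561 and 2588 FPKM at 0 d and 400, 405, 387 and 424 FPKM at 14 d (log2 change -2.69 ± 0.07, adjusted p = 6.98e-09). Gm12319, a long non-coding RNA on the other strand just before Eno3 (chr11:70654741-70656493, with Eno3 at chr11:70657202-70662513), was among the 10 largest falls at -3.79, from 142 to 9.37 FPKM. Fbp2, the muscle fructose-bisphosphatase, fell by 2.80, Tpi1 by 2.52 and Gpd1, the cytosolic glycerol phosphate dehydrogenase, by 2.36. Slc16a3, the lactate exporter MCT4 of glycolytic fibres, had 51.6, 50.5, 56.6 and 53.3 FPKM at 0 d and 1.72, 2.80, 2.12 and 2.22 FPKM at 14 d, a log2 change of -4.08 ± 0.10. Gapdh, often used as a reference gene, was at 194, 194, 200 and 198 FPKM and then at 92.5, 88.9, 69.0 and 80.2 FPKM (log2 change -1.25 ± 0.09, adjusted p = 2.37e-06).

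Among the 23 genes of fatty acid oxidation and the TCA cycle, 14 fell and 1 rose as deposited, and 21 fell after median-ratio scaling. Idh2, a mitochondrial isocitrate dehydrogenase, fell by 2.09, Acadm, the medium-chain acyl-CoA dehydrogenase, by 1.48, Fabp3, the fatty acid carrier of muscle, by 1.47 and Idh3a by 1.28. Pdk4, the kinase that shuts pyruvate dehydrogenase, rose by 0.79 but was not called after median-ratio scaling (0.40). Nuclear genes of the respiratory chain had smaller falls: 12 of 30 were lower as deposited and 29 after median-ratio scaling, and all 30 had negative values, from -1.66 to -0.21. Cox7a1 (-1.66) and Cox8b (-1.02), the muscle isoforms of cytochrome oxidase, led them, before Sdhb (-0.82) and Cox5a (-0.81). Of the 13 genes encoded in mitochondrial DNA, 12 fell, led by mt-Co3 (-2.17), mt-Nd2 (-1.49), mt-Nd3 (-1.46) and mt-Nd1 (-1.34), and 12 fell after median-ratio scaling too. For mt-Co1, the most abundant transcript, whose call was lost without the filter (adjusted p = 0.270), the values were 48381, 49759, 39123 and 49392 FPKM at 0 d and 24049, 18766, 19516 and 20807 FPKM at 14 d. Of 13 regulators of mitochondrial genes, 5 fell as deposited and 6 after median-ratio scaling. Perm1, a muscle-specific partner of PGC-1, fell by 3.48, Esrra by 0.96, Ppara by 0.93 and Ppargc1a, which encodes PGC-1alpha, by 0.77.

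**Figure D4:**
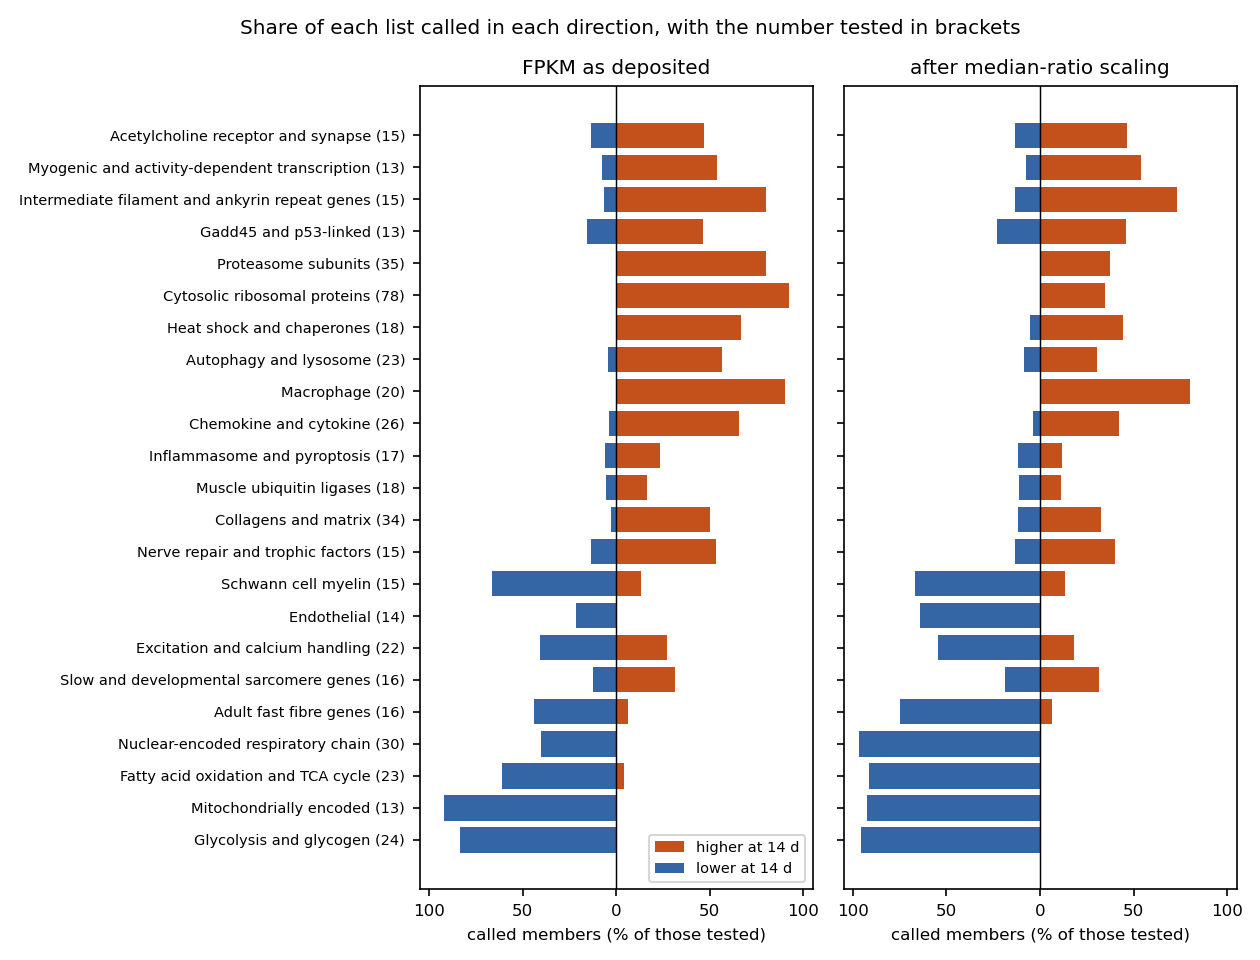
Share of the tested members of 23 lists that was called higher (orange, to the right) or lower (blue, to the left) at 14 d, in percent, with FPKM as deposited on the left and after median-ratio scaling on the right. Ribosomal proteins go from 72 of 78 higher to 27 and respiratory chain genes from 12 of 30 lower to 29, while the synapse, myelin and mitochondrially encoded lists keep their counts.

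Most genes for the cytosolic ribosome were higher as deposited. Of the 78 cytosolic ribosomal protein genes, 72 rose as deposited and 27 after median-ratio scaling, with median log2 changes of 0.93 and 0.55. Rpl3 stood out from the others: it had 40.6, 34.9, 31.9 and 30.0 FPKM at 0 d and 151, 164, 146 and 145 FPKM at 14 d (log2 change 2.12 ± 0.09), whereas Rpl19 (1.27), Rps27a (1.24) and Rpl35 (1.18) came next. Of the exon length of Rpl35, 821 of 1241 bases lie opposite another gene. Rpl3l, the muscle paralogue that takes the place of Rpl3 in adult fibres, went from 269, 281, 276 and 229 FPKM to 32.5, 36.0, 31.3 and 29.5 FPKM (log2 change -2.99 ± 0.08). The ratio of Rpl3 to Rpl3l was 0.116 to 0.151 at 0 d and 4.57 to 4.90 at 14 d.

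A pair of isoforms also parted in the elongation factor that brings aminoacyl-tRNA to the ribosome. Eef1a1, the general form, rose by 2.20, from 395, 345, 331 and 303 FPKM to 1644, 1604, 1510 and 1561 FPKM. Eef1a2, the form of adult muscle and neurons, fell by 0.98, and the ratio of Eef1a1 to Eef1a2 went from 0.469 to 0.641 at 0 d to 4.71 to 5.13 at 14 d. In all, 14 of 26 translation factors rose and 3 fell, and 7 rose and 4 fell after median-ratio scaling. Eif4a1, the helicase of initiation, rose by 1.89, Eef1b2 by 1.10 and Eif6 by 1.05. Eif4e, the cap-binding protein, fell by 0.78 and Eif1 by 0.75, the last not called as TPM (-0.55).

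Of the 35 proteasome genes, 28 rose as deposited and 13 after median-ratio scaling, and all 35 had values above 0, with a median of 0.94. Psmc1, an ATPase of the 19S cap, had 83.3, 80.4, 79.9 and 82.5 FPKM at 0 d and 210, 208, 207 and 204 FPKM at 14 d (log2 change 1.34 ± 0.05). Psmb5, the catalytic subunit with chymotrypsin-like activity, rose by 1.40, Psmd4, a ubiquitin receptor, by 1.39 and Psmd11 by 1.37. Autophagy and lysosome genes rose in 13 of 23 cases and fell in 1, or in 7 and 2 after median-ratio scaling. Map1lc3a, an LC3 protein of the autophagosome, rose by 2.37 and the cathepsins Ctss, Ctsl and Ctsd by 2.24, 1.96 and 1.37. Ctss is also a macrophage protease. Tfeb, a regulator of lysosomal genes, was called at -0.61, and this call was lost without C2, C3 or D14d (-0.57 to -0.58) and as TPM (-0.47).

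Of 18 ubiquitin ligases of muscle, 3 (16.7%) rose and 1 (5.56%) fell, close to the 17.9% and 4.66% over all genes tested, or 2 and 2 after median-ratio scaling. Their median log2 change was 0.19 as deposited and -0.11 after scaling. Trim63, which encodes MuRF1, the ligase best known from atrophy, had 86.6, 76.1, 107 and 95.6 FPKM at 0 d and 114, 138, 153 and 112 FPKM at 14 d. The groups did not overlap, but the log2 change of 0.50 ± 0.13 (adjusted p = 0.00778) was under the 1.5-fold limit and came to 0.10 after median-ratio scaling. Rescaled to TPM it was 0.71 and passed the limit. Fbxo30, the ligase MUSA1, rose by 1.29, Mdm2, the ligase of p53, by 1.23 and Nedd4 by 0.88, the last not called after median-ratio scaling. Asb2 fell by 1.76.

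Stress and arrest genes linked to p53 and Gadd45 numbered 13, of which 6 rose and 2 fell, or 6 and 3 after median-ratio scaling. Cdkn1a, the cell cycle inhibitor p21, had 2.83, 3.32, 3.58 and 3.08 FPKM at 0 d and 165, 142, 99.1 and 98.2 FPKM at 14 d (log2 change 4.88 ± 0.16, adjusted p = 2.08e-08). Eda2r, a receptor of the tumour necrosis factor family, rose by 2.97 and Bbc3, the death protein PUMA, by 1.31. Gadd45b and Gadd45g, relatives of Gadd45a, fell by 1.53 and 1.62, and the ratio of Gadd45a to Gadd45b went from at most 0.304 at 0 d to at least 32.9 at 14 d. Among 16 apoptosis genes, 4 (25%) rose and 1 (6.25%) fell, against 17.9% and 4.66% over all genes tested, or 3 and 1 after scaling. Limma-voom called 7 of them higher, where 31.8% of all genes in that fit were called higher. Bax, which opens the mitochondrial outer membrane, rose by 1.15, Bid by 0.92 and Bcl2l1, which protects cells, by 0.73, the last not called after median-ratio scaling. Cycs, cytochrome c, fell by 1.16.

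Of the 19 genes listed for the inflammasome and pyroptosis, 17 passed the filter. Of these, 4 (23.5%) rose and 1 (5.88%) fell, near the 17.9% and 4.66% over all genes tested, or 2 and 2 after median-ratio scaling. In limma-voom on the recovered fragments, 12 were higher and 1 lower, where 31.8% and 7.16% of all genes in that fit were called. Groups did not overlap in the higher direction for 12 of the 17, and for 43.3% of all genes tested. Nlrp3, the sensor, was close to the limit of the depth, with 1 to 8 fragments in each 0 d library and 17 to 23 at 14 d. Its FPKM was 0.0640, 0.0165, 0.0484 and 0.124 at 0 d and 0.295, 0.326, 0.246 and 0.341 at 14 d, without overlap. On the log2(FPKM + 1) scale this came to 0.29 ± 0.06 (adjusted p = 0.00145), under the 1.5-fold limit, since a pseudocount of 1 compresses levels below 1. With a pseudocount of 0.1 the change was 1.33 (adjusted p = 0.00173), and the recovered fragments gave 2.33 with limma-voom (adjusted p = 0.000464), both past the limit. Il1b and Pycard, which encode interleukin 1 beta and the adaptor ASC, also passed the limit with a pseudocount of 0.1, as TPM and in limma-voom but not on the main scale. Il1b was counted with 0 to 3 fragments per library at 0 d and 5 to 12 at 14 d, at 0.25 on the main scale and 1.20 with a pseudocount of 0.1. Pycard was at 0.138 to 0.290 FPKM and then 0.345 to 0.538 FPKM, 0.26 on the main scale and 0.89 with a pseudocount of 0.1.

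Casp1, the caspase that the complex activates, had 0.890, 0.577, 1.25 and 0.884 FPKM at 0 d and 1.14, 1.49, 2.15 and 2.03 FPKM at 14 d, with overlap (log2 change 0.50 ± 0.15, adjusted p = 0.0141). It was past the 1.5-fold limit with a pseudocount of 0.1 (0.85), as TPM (0.85), in limma-voom (0.89) and without C3 (0.59) or D14a (0.61). Gsdmd, the pore protein of pyroptosis, had 3.00, 3.07, 3.09 and 2.99 FPKM and then 3.98, 4.65, 4.05 and 5.17 FPKM, a log2 change of 0.43 ± 0.08 (adjusted p = 0.00123) that did not reach 1.5-fold and was 0.12 after median-ratio scaling, while as TPM it passed the limit at 0.68. Il18 overlapped between the groups, at 1.53 to 1.95 FPKM and 1.66 to 2.90 FPKM (log2 change 0.23 ± 0.13, adjusted p = 0.148). Tlr4, a receptor of priming signals, rose by 1.84 and Panx1, a channel that releases ATP, by 1.67 under either scaling, while Myd88 (0.83) and Casp4 (0.75) were not called after median-ratio scaling. Txnip, a binding partner of NLRP3 that is also controlled by glucose use, fell by 1.00, from 175, 186, 171 and 167 FPKM to 81.2, 88.8, 85.4 and 92.7 FPKM.

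Chaperone genes rose in 12 of 18 cases, and after median-ratio scaling 8 rose and 1 fell. Hspb8, a small heat shock protein of chaperone-assisted autophagy, had 225, 198, 255 and 243 FPKM at 0 d and 1847, 1669, 1766 and 1684 FPKM at 14 d (log2 change 2.92 ± 0.09). Hspb7 rose by 2.27, Hsp90ab1 by 1.44 and Hsph1 by 1.34. Of 17 antioxidant genes, 8 rose and 2 fell, or 6 and 3 after scaling. Gpx3, the secreted glutathione peroxidase, rose by 2.21, Mt1 by 1.58, Gpx1 by 1.38 and Srxn1 by 1.18, while Nqo1 fell by 1.04 and Sod2, the mitochondrial dismutase, by 0.91. Of 21 genes of Atf4 and the stress response, 7 rose and 1 fell as deposited, and 2 rose and 3 fell after median-ratio scaling. Slc7a5, a carrier of leucine, rose by 1.44 and Xbp1 by 1.38 under either scaling, whereas Mthfd2 (0.87) and Hspa5 (0.82) lost their calls after it. Chac1, which degrades glutathione, fell by 1.52.

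In polyamine metabolism 3 of 12 genes fell and 1 rose under either scaling. Amd1, S-adenosylmethionine decarboxylase, had 539, 397, 569 and 741 FPKM at 0 d and 20.5, 17.6, 22.9 and 20.9 FPKM at 14 d (log2 change -4.68 ± 0.17, adjusted p = 3.20e-08). Its copies Amd2 (-3.30) and Amd-ps4 (-3.94) nearly match it in sequence, so reads could be divided among them and their separate values are uncertain. Smox, spermine oxidase, fell by 3.29 and Odc1, ornithine decarboxylase, rose by 0.99. The other genes among the 10 largest falls were Mlf1 (-4.24), which went from 171, 174, 174 and 199 FPKM to 8.48, 9.55, 8.64 and 7.67 FPKM, Gm49477 (-4.05), a long non-coding RNA, Ky (-3.64), a muscle protein of the Z disc, and Odf3l2. Odf3l2 had 15.0 to 22.7 FPKM at 0 d and a single fragment in all 14 d libraries together, a ratio of 1468 between the groups with an exact 95% interval of 263 to 58010 for counting error only.

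Signals that control muscle mass were on both sides. Mstn, myostatin, the inhibitor of muscle growth, fell by 2.16, from 44.8 ± 9.94 to 9.60 ± 3.96 FPKM (SD, n = 4), and its receptor Acvr2b by 0.88. Fst, follistatin, which binds myostatin, rose by 1.76. Gdf5, a BMP ligand known to limit denervation atrophy, was at 0 to 0.109 FPKM at 0 d and 4.59, 4.67, 4.76 and 4.83 FPKM at 14 d, and the BMP target Id2 rose by 2.41. Of Gdf5, 936 of 2320 exon bases lie opposite another gene. Tgfb1 rose by 1.96. In all, 9 of 25 growth factor genes rose and 2 fell, or 7 and 2 after median-ratio scaling. H19 rose by 3.04, Peg3 by 1.93 and Grb10 by 0.82 among 13 imprinted genes (23.1%, against 17.9% over all genes tested), the last not called after median-ratio scaling, which left 2 higher. Limma-voom called 7 of the 13 higher, where 31.8% of all genes in that fit were called higher. Of 18 clock genes, Per2 (1.19), Cry2 (0.85), Tef (0.62) and Per1 (0.61) rose and Bhlhe41 (-0.62) fell as deposited. These are 22.2% and 5.56% of the list, near the 17.9% and 4.66% over all genes tested. Per2 alone of these risers was called after median-ratio scaling. That scaling left 1 higher and 4 lower and turned the list's median from 0.26 to -0.07. The call of Bhlhe41 was lost without C3 (-0.5846 against a limit of 0.585) or D14c (-0.55) and as TPM (-0.49), and that of Tef without C1 (0.55).

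Of 15 genes listed for the myelin of Schwann cells, which ensheath the axons inside the muscle, 10 fell and 2 rose under either scaling. Prx, periaxin, which links the myelin sheath to the matrix around it, had 9.15, 10.5, 5.79 and 4.79 FPKM at 0 d and 0.469, 0.464, 0.358 and 0.334 FPKM at 14 d (log2 change -2.55 ± 0.20, adjusted p = 4.41e-06). Mal fell by 2.05, Drp2 by 1.91 and Pmp22, a membrane protein of myelin, by 1.77. The summed FPKM of 5 Schwann cell markers was 11.6 to 24.5 at 0 d and 8.03 to 14.1 at 14 d, with overlap, and the part of the number of these cells in the result was not tested. Sox10, the factor that marks the Schwann lineage, rose, from 1.89, 1.89, 1.44 and 1.09 FPKM to 3.21, 4.96, 3.98 and 5.41 FPKM (log2 change 1.06 ± 0.15, adjusted p = 0.000243), as did Gldn (1.18), a protein of the node, both members of this list. The ratio of Sox10 to Prx was 0.180 to 0.249 at 0 d and 6.84 to 16.2 at 14 d.

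Markers of repair Schwann cells and trophic factors rose in 8 of 15 cases and fell in 2, or in 6 and 2 after median-ratio scaling. The 8 include Olig1, which entered the test only through 14 d. Ngfr, the low-affinity neurotrophin receptor, had 0.584, 0.311, 0.475 and 0.256 FPKM at 0 d and 12.2, 18.8, 14.7 and 20.8 FPKM at 14 d (log2 change 3.63 ± 0.15). Olig1 rose by 1.81, Jun, the master factor of the repair state, by 1.61 and Gdnf, a survival factor for motor neurons, by 1.49. Gdnf was at 0.137 to 0.303 FPKM and then 1.90 to 2.81 FPKM. Ntf5, neurotrophin 4, an activity-dependent signal from fibres, fell by 1.17 and Ret, the receptor of GDNF, by 0.81.

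Of 20 macrophage genes, 18 rose as deposited and 16 after median-ratio scaling, with a median log2 change of 1.26. The summed FPKM of 6 defining markers was 69.4 to 102 at 0 d and 202 to 350 at 14 d, and its part in the other immune results was not tested. Lgals3, galectin 3, had 5.10, 4.58, 4.55 and 3.80 FPKM and then 41.3, 54.0, 44.8 and 57.6 FPKM (log2 change 3.19 ± 0.11). Gpnmb rose by 2.67, Cd68 by 1.99 and Lyz2 by 1.84. Of 26 chemokine and cytokine genes, 17 rose and 1 fell, or 11 and 1 after median-ratio scaling. Ccl8, an attractant of monocytes, had 0.769 to 1.23 FPKM at 0 d and 23.6 to 43.5 FPKM at 14 d, a log2 change of 4.05 ± 0.16. Ccl7 rose by 1.56 and Ccl9 by 1.47, and Ccl21a was called at 1.49 with overlapping groups, a call that was lost without C2, C4, D14a, D14b or D14d (adjusted p of 0.0503 to 0.0737), after median-ratio scaling (0.0796) and without the filter (0.0641). Il15, a cytokine that muscle itself makes, fell by 1.06. Of 27 genes of complement, MHC and interferon, 13 rose, and 7 rose and 1 fell after scaling. C4b rose by 2.23 and the class II genes H2-Eb1, H2-Ab1 and H2-Aa by 1.96, 1.90 and 1.82.

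Markers of T and B cells stayed near 0 in both groups, with summed FPKM of 0.129 to 0.265 for T cells and 0.130 to 0.924 for B cells. S100a8, a calcium-binding protein abundant in neutrophils, had 0.0935, 0.386, 0.283 and 0.0908 FPKM at 0 d and 19.3, 22.1, 40.3 and 45.2 FPKM at 14 d (log2 change 4.67 ± 0.25, adjusted p = 4.32e-07). S100a9, which encodes the other chain of the same dimer, had 0.622, 1.03, 0.502 and 1.45 FPKM and then 0.109, 1.54, 1.24 and 2.08 FPKM (log2 change 0.17, adjusted p = 0.640, or -0.03 after median-ratio scaling), and Ly6g, a neutrophil surface marker, had no fragment in any of the 8 libraries. Csf3r, the receptor of G-CSF, rose by 0.73, but was not called after median-ratio scaling or without D14d (0.57 each).

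Of 34 collagen and matrix genes, 17 rose and 1 fell, or 11 and 4 after median-ratio scaling. Postn, periostin, rose by 3.23, Timp1 by 3.03, Tnc, tenascin C, by 2.19 and Bgn by 1.53, while Fmod, a proteoglycan of tendon, fell by 1.19. Of 12 markers of fibro-adipogenic progenitors, Pi16 rose (0.88) and 11 were not called, and after median-ratio scaling Pi16 was not called (0.51) and 3 of the 12 were lower. Among 14 endothelial genes, Vegfa (-1.47), Kdr (-0.82) and Vegfb (-0.75) fell. Vegfa and Vegfb are ligands that fibres also make, and Vegfb was not called as TPM (-0.56). After median-ratio scaling 9 of the 14 fell, and the summed FPKM of 5 endothelial markers was 81.5 to 93.1 at 0 d and 62.5 to 77.3 at 14 d. Plin4 fell by 1.22 among 11 adipocyte genes, whose 5 defining markers overlapped between groups (145 to 292 and 146 to 597). The 5 erythroid genes were not called by limma, and 0 of them had an unadjusted p under 0.05 or a call in limma-voom. Of 19 cell cycle genes, 6 rose as deposited and 1 after median-ratio scaling. Limma-voom on the recovered fragments called 17 higher, where 31.8% of all genes in that fit were called higher. That fit adds no pseudocount of 1 FPKM, and the part of this in the count was not tested. On the main scale all 19 had values above 0, and the median over all genes tested was 0.21. Rrm2, a ribonucleotide reductase subunit, rose by 2.59 and remained called after median-ratio scaling, while Mcm6 (0.87), Pcna (0.70) and Mcm7 (0.62) did not, the last also not without C1 or C2. Mki67, a marker of dividing cells, was not called (0.40) but passed the limit with a pseudocount of 0.1 (1.02), as TPM (0.79) and in limma-voom (1.24).

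What set 14 d apart from its neighbours in time was small in number. Against 7 d, 52 genes were higher at 14 d and 43 were lower, 0.28% and 0.232% of the 18551 tested and 0.512% in all, and after median-ratio scaling 44 were higher and 35 lower. Against 21 d, 79 were higher and 29 were lower, 0.428% and 0.157% of 18469 and 0.585% in all, and after median-ratio scaling 58 were higher and 39 lower. These comparisons share the 4 samples of 14 d with each other and with the comparison against 0 d, so they are not independent of it. The samples of 7 d and 21 d were GAS muscles after the same transection.

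Several of the genes with the largest rises over 0 d were higher at 14 d than at 7 d. Sln was at 98.5 FPKM on average at 7 d, 789 at 14 d and 829 at 21 d, a log2 difference of 2.86 ± 0.30 from 7 d (adjusted p = 0.00404) and of -0.20 from 21 d (adjusted p = 0.763). Chrnd was at 53.7, 102 and 119 FPKM and Chrng at 30.0, 46.7 and 49.9 FPKM, higher than at 7 d by 0.92 and 0.62 with adjusted p of 0.00487 for each. Igfn1 had 112, 286 and 331 FPKM (1.36 over 7 d, adjusted p = 0.00338). The largest other rises over 7 d were those of the non-coding RNAs Gm37800 (2.24) and A430010J10Rik (1.83), of Fkbp1a-ps2 (1.57) and of Hpgd (1.44), which encodes the enzyme that inactivates prostaglandins.

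Other genes were lower at 14 d than at 7 d. Trim63 was at 262 FPKM at 7 d, 130 at 14 d and 64.8 at 21 d, lower than at 7 d by 1.00 (adjusted p = 0.0276) and higher than at 21 d by 0.98 (adjusted p = 0.00372). Tubb4b, a beta tubulin, had 264, 91.1 and 56.1 FPKM, lower than at 7 d by 1.52 (adjusted p = 0.00111) and higher than at 21 d by 0.68. Mybpc2 was lower than at 7 d by 1.39, with 200, 76.8 and 68.3 FPKM. The remaining large falls from 7 d were those of Slc15a2, a peptide carrier (-1.58), Orm2, an acute phase protein (-1.50), and Ppp1r27 (-1.38).

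Against 21 d, Tmem100 was higher at 14 d by 1.68, at 83.8 and 24.8 FPKM, Rap1gap2 by 1.36, Orm1 by 1.28, the glycolytic regulator Pfkfb3 by 1.25 and Cdk2ap2 by 1.21. Cdkn1a had 126 FPKM at 14 d and 55.1 at 21 d (1.14 higher at 14 d, adjusted p = 0.0105). Bcl6, a transcriptional repressor, was lower at 14 d than at 21 d by 1.78, at 9.39 and 34.5 FPKM. Among the genes reported here, Gm26917 (-1.24), Gm10925 (-1.20), Tac4, a tachykinin (-1.19), and Galnt5 (-1.10) came after it. Galnt5 was also higher than at 7 d, by 1.10, so that its level rose through 14 d. Myh1, chosen for the plot after its values were seen, was lower than at 21 d by 0.88.

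Of the genes tested in both, 3 were higher at 14 d than at both 7 d and 21 d. Hpgd had 29.1 FPKM at 7 d, 81.6 at 14 d and 36.4 at 21 d, with adjusted p of 0.0226 and 0.0278. Its 14 d samples were at 64.5, 72.6, 121 and 68.1 FPKM, all above the highest sample of either neighbour. Gm12185 had 3.26, 6.01 and 2.73 FPKM and Gm11872 had 0.620, 2.63 and 0.940 FPKM. A single gene, not reported here, was lower than at both.

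**Figure D5:**
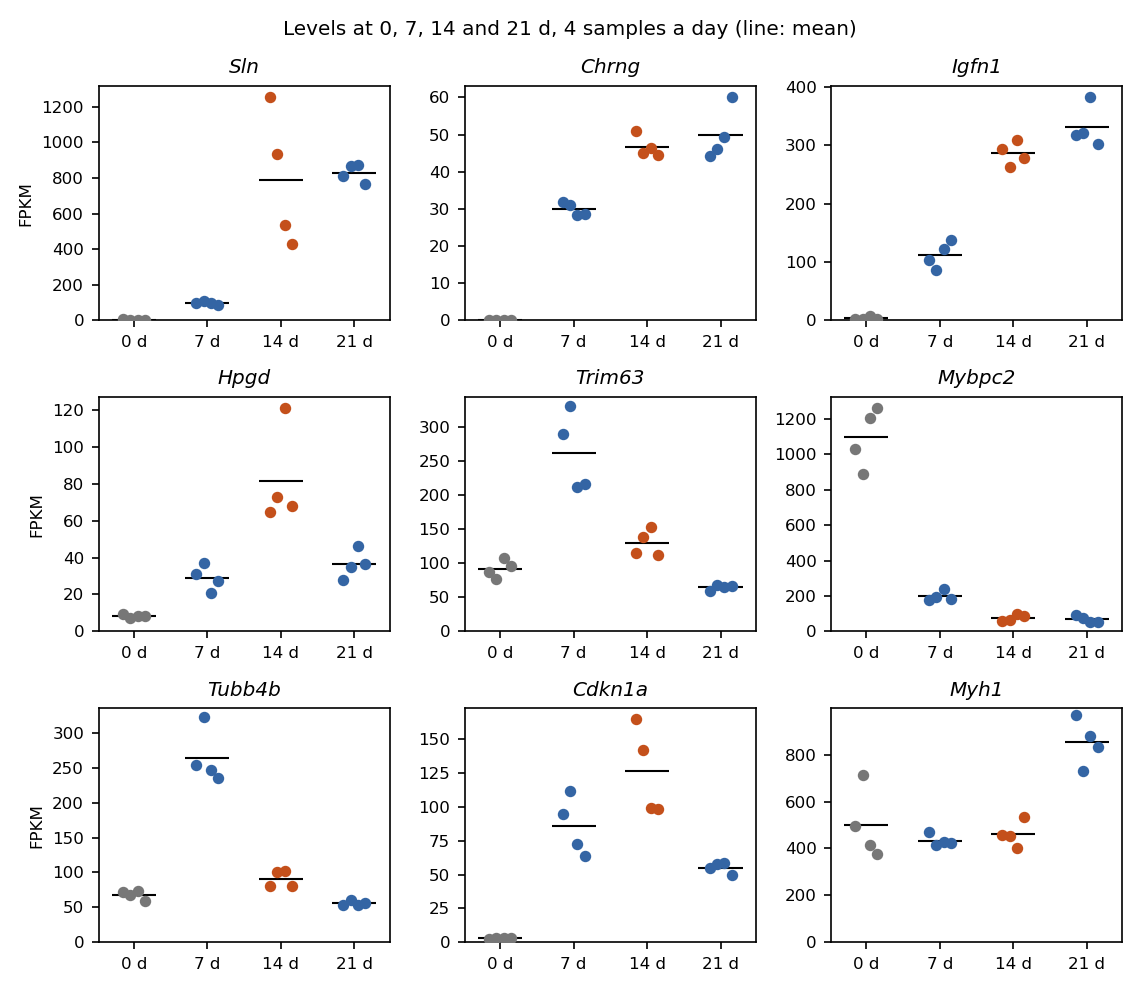
FPKM of 9 genes in each sample at 0, 7, 14 and 21 d, on linear axes from 0; orange points are the 4 samples at 14 d, blue points those at 7 and 21 d, grey points those at 0 d, and lines are means. Sln, Chrng and Igfn1 climb from 7 d to 14 d and stay there, Trim63 and Tubb4b fall through 14 d, and Hpgd is highest at 14 d.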

How the data were processed

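RNA of mouse gastrocnemius was sequenced at 8 times after sciatic nerve transection, and the series was deposited by the authors as 1 table of FPKM values with 33397 genes and 32 samples. The submitters' processing notes name HISAT2 2.1.0, GRCm38, CASAVA and DESeq2 without their roles, and the counting tool and annotation were not given in the sources used here. Columns were mapped to times by their names, which carry no animal. Since FPKM values are not counts, the fit was limma 3.58.1 (R 4.3.3, trend) on log2(FPKM + 1), over the genes that reached 0.1 FPKM in 4 or more of the 8 samples compared. P-values were adjusted over all genes tested (Benjamini-Hochberg), and genes were called at an adjusted p under 0.05 and a fold of at least 1.5. Fold changes on this scale understate those of low genes. The design planned for FPKM was kept.

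Low FPKM values of a gene were whole multiples of 1 fragment given the exon length of GENCODE M21, to which 33356 genes were matched and 41 were not, so fragments per gene were recovered from these steps with a tolerance of 0.02 fragments; 99.3% of the low values came out whole in the median sample of either group. They gave the depth and limma-voom as an alternative chosen after seeing the data. Intervals and floors (3 fragments) cover counting error only. Gene coordinates are those of GENCODE M21 on GRCm38, and sequences are from RefSeq. The fit was tested on simulated data made from the means of 14 d and 0 d. There, 188 of 200 genes changed 2-fold were recovered (94%) and 2 unchanged genes were called, among 18525 genes tested. The changed genes were drawn only from those at 2 FPKM or more, and every gene had the same dispersion and no shift in scaling. The recovery therefore does not describe low genes such as Nlrp3, the spread of the real samples or the effect of the scaling. The alternatives were another pseudocount, no filter, a filter at 1 FPKM, median-ratio scaling, TPM, rescaling without mitochondrial genes, no variance trend, a fit of all 32 samples, a fold of 2 and leaving out each sample.

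The genes named are the 10 largest changes each way without overlap, up to 4 called members each way of every list described, 8 genes of inflammasome, atrophy and reference interest (Nlrp3, Pycard, Casp1, Gsdmd, Il1b, Il18, Trim63 and Gapdh), and the 5 largest each way against 7 d and 21 d, 213 genes in all. A further 16 members of lists or partners of named genes were chosen for their role after their values were seen (Chrne, Hdac4, Lrp4, Mki67, Musk, Myh1, Myh2, Myh7, Myh8, Ncam1, Pax7, Rpl3l, Ryr1, S100a9, Scn4a and mt-Co1). Gsdmd is an exception to passing over genes by the chromosome of their human counterpart. The comparison and the gene lists were chosen with earlier results of these data known. Some genes are not reported here.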

Additional observations from a re-analysis of the deposited data

Results flagged for a closer look

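Among 456 groups of 4 samples examined over 229 named genes, 23 held a sample far from the other 3 (Dixon's test at 95%), against 22.8 that chance would give at 1 in 20.

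At 0 d the far sample was high for Mlf1 (199 FPKM, the others 171 to 174), Odf3l2 (22.7, the others 15.0 to 15.7), Nedd4 (48.6, the others 43.2 to 43.8), Tlr4 (2.55, the others 1.83 to 1.94), Gldn (1.24, the others 0.622 to 0.711), Pycard (0.290, the others 0.138 to 0.149), Myh7 (47.6, the others 23.3 to 26.1) and Gm11872 (0.0302, the others at 0). It was low at 0 d for Srxn1 (11.1, the others 12.2 to 12.3), Bgn (15.8, the others 18.7 to 19.2), Il18 (1.53, the others 1.88 to 1.95), Gm37800 (0, the others 0.0633 to 0.0673), mt-Co1 (39100, the others 48400 to 49800) and Tac4 (0, the others 0.0504 to 0.0536).

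At 14 d the far sample was high for Chrna1 (230 FPKM, the others 192 to 197), Myod1 (91.2, the others 82.2 to 83.7), mt-Nd1 (10100, the others 8060 to 8290), Eif4a1 (103, the others 89.4 to 91.7), Hpgd (121, the others 64.5 to 72.6), Scn4a (55.9, the others 48.4 to 49.2) and Odf3l2 (0.0456, the others at 0). It was low for Cacng1 (406, the others 533 to 555) and Amd2 (0.460, the others 0.617 to 0.626). The first 14 d sample was the far one for Chrna1, mt-Nd1, Eif4a1, Odf3l2 and Amd2.

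By limma's test of the difference between the times, 12 of the genes named for the comparison with 0 d differed between 14 d and 7 d. On the log2 scale, 14 d was higher by 2.86 for Sln, 1.57 for Fkbp1a-ps2, 1.36 for Igfn1, 0.915 for Chrnd, 0.862 for Gpx3, 0.849 for Myh4, 0.795 for Tgfb1 and 0.623 for Chrng. The differences were -1.39 for Mybpc2, -1.27 for Mstn, -0.995 for Trim63 and -0.625 for Panx1. After median-ratio scaling Myh4 (adjusted p = 0.140), Mstn (0.0591) and Panx1 (0.0613) were not called.

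Between 14 d and 21 d, 13 of these genes differed. At 14 d the level was higher by 1.14 for Cdkn1a, 0.996 for Asb2, 0.979 for Trim63, 0.931 for Chac1, 0.928 for Ngfr, 0.677 for Myh3 and 0.667 for Gdnf. The differences were -0.883 for Myh1, -0.773 for mt-Co3, -0.767 for Mthfd2, -0.702 for Tnnt2, -0.698 for Tpi1 and -0.669 for Eno3.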

How the results depend on the processing

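Of the values of 229 named genes, 1992 kept their direction and side of the threshold under the other settings, 31 lost and 21 gained a call and 8 turned, none of them called. These were, after median-ratio scaling, Il18 (-0.0376), Chrne (-0.324), Pax7 (-0.0693), Ryr1 (-0.329) and S100a9 (-0.0263), without mitochondrial genes Chrne (-0.0573) and Ryr1 (-0.0284), and as TPM Myh1 (0.131). Leaving out single samples kept 1761, ended 18, added 5 and turned 8, all of them uncalled (Chrne with a range of -0.0731 to 0.192, Ryr1 -0.0648 to 0.190, S100a9 -0.0126 to 0.478 and Myh1 -0.201 to 0.107). Myh2 passed the limit as TPM (0.687) and without C2 (0.629), and Myh7 without D14b (-0.920). Against 0 d, the 3248 higher genes became 5540 with a pseudocount of 0.1, 1409 after median-ratio scaling, 6803 as TPM, 1051 at 2-fold and 5757 with limma-voom, and 3089 to 3360 without single samples. The 844 lower genes became 1615 after median-ratio scaling, 395 at 2-fold and 1297 with limma-voom, and 814 to 875 without single samples. Against 7 d, the 52 higher genes became 29 without the filter, 83 in the fit of all 32 samples, 17 at 2-fold and 82 with limma-voom, and 35 to 57 without single samples. The 43 lower genes became 17 without the filter and 11 at 2-fold, and 16 to 41 without single samples (23, 22, 27 and 16 without D14a, D14b, D14c and D14d, 22 without D7a and 26 without D7b). Against 21 d, the 79 higher genes became 126 with a pseudocount of 0.1, 221 as TPM, 13 at 2-fold and 185 with limma-voom, and 45 to 100 without single samples (45 without D14c or D21a, 50 without D21b, 51 without D21d). The 29 lower genes became 46 with a pseudocount of 0.1, 6 at 2-fold and 60 with limma-voom, and 19 to 46 without single samples (46 without D14a, 19 without D21d). A filter at 1 FPKM, no variance trend and rescaling without mitochondrial genes kept all 6 counts within 1.5 times (2664 higher and 994 lower against 0 d in the last). List medians that turned were those of ubiquitin ligases (-0.11) and clock genes (-0.067) after median-ratio scaling and of mitochondrial regulators (0.017) as TPM. Apart from the higher fold limit, the smaller sample numbers and the scalings by construction, the cause was not tested. Depth limited genes such as Nlrp3 and Il1b, with at most 8 and 3 fragments in a 0 d library. No paired analysis was possible because the columns carry no replicate number of the labels.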
